A study of Mus musculus with 8 samples.

Results

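Open chromatin at 4 genes of the myeloid lineage, Mpo, Prtn3, Elane and Csf1r, was followed through 8 ATAC-seq peak lists from mouse c-Kit+ marrow cells. The members were all peaks that overlapped any of 3 windows of the mm9 genome. These were chr11:87590000-87640000 for Mpo, chr10:79330000-79370000 for Prtn3 and Elane together, and chr18:61245000-61305000 for Csf1r. The windows held 204 of the 557040 deposited peaks. Merging peaks that overlapped by at least 1 bp gave 38 regions of 114533 in all, 16 in the Mpo window, 12 in the Prtn3 and Elane window and 10 in the Csf1r window. ATAC-seq cuts DNA that a transposase can reach, so a peak marks accessible chromatin and not transcription. The libraries came from 4 genotypes with 2 libraries each, 50000 cells per library, taken 4 weeks after PIpC, an inducer of interferon that switches on Mx1-Cre. Smc3 fl/+ mice were the controls: they carried a floxed Smc3 allele and PIpC, but no Mx1-Cre. Smc3 del/+ mice carried Mx1-Cre and had 1 Smc3 allele deleted. Flt3-ITD mice carried Mx1-Cre per their title and the internal tandem duplication of the receptor Flt3. Smc3 fl/del Flt3-ITD mice carried Mx1-Cre, a deleted Smc3 allele and Flt3-ITD, and the titles call them Smc3 heterozygous, so the state of their other Smc3 allele is not settled by the labels. The free-text notes on the Flt3-ITD and the Smc3 del/+ libraries are exchanged against title and genotype label, and the genotype label was followed. The cells were selected with magnetic beads from the marrow of individual mice, but no label states outright that both libraries of a genotype came from different mice. Age and sex are not stated. The c-Kit+ label was not checked against marker genes, as no mm9 annotation was used here.

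Myeloperoxidase (Mpo) and the serine proteases proteinase 3 (Prtn3) and neutrophil elastase (Elane) are stored in the primary granules of neutrophil precursors, and their genes are active in granulocyte-monocyte progenitors and promyelocytes. Csf1r encodes the receptor for macrophage colony-stimulating factor and marks the monocyte and macrophage lineage. The transcription factors PU.1, C/EBP, RUNX1 and MYB are known regulators of such genes. c-Kit+ marrow is a mixture of stem cells and progenitors of several lineages, so in these bulk libraries fewer cells of a type and less accessible chromatin per cell cannot be told apart. Smc3 is part of the cohesin ring, which tethers sister chromatids and takes part in folding chromatin into loops.

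The stretches before the start sites of the granule genes are shown so that the regulators' short recognition letters can be seen beside the regions named for these genes. RefSeq gives the 250 bases before each start on the plus strand of GRCm38.p6, a later build than that of the peaks, so no peak was placed on these sequences. Capitals mark letters found by a search of both strands for GAGGAA (PU.1), TTGCNNAA (C/EBP), TGTGGT (RUNX) and CAACGG (MYB), letters chosen after the sequences had been seen.
Mpo, chr11:87793534-87793783: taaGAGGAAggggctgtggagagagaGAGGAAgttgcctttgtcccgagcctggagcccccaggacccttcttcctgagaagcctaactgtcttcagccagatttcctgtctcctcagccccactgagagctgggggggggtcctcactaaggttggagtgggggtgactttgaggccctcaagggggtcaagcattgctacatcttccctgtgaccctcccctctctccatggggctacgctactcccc
Prtn3, chr10:79879417-79879666: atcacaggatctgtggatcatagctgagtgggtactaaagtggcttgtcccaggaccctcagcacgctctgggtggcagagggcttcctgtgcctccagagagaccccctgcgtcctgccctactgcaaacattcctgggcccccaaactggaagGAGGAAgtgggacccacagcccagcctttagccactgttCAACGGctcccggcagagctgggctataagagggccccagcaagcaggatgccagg
Elane, chr10:79886062-79886311: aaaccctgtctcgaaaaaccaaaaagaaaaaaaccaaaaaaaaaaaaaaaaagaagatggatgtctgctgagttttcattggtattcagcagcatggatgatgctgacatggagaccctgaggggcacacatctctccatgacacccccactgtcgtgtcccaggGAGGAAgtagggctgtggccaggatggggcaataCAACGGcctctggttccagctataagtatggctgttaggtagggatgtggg
All 3 stretches held GAGGAA on the strand of the gene. In Mpo it began 247 and 224 bases before the start, in Prtn3 95 bases and in Elane 85 bases. Prtn3 and Elane also shared CAACGG, 56 and 51 bases before their starts. Mpo lacked these exact letters, and other spellings of a MYB site were not searched. TTGCNNAA and TGTGGT had no match in any of the 3. Among 32851 RefSeq promoters of the same length, 23.3% held GAGGAA, 4.05% CAACGG, 9.56% TTGCNNAA and 14.0% TGTGGT on either strand. As the letters were chosen with the 3 sequences in view, these shares are no test of the matches. A match describes the letters only and is not a bound site.

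The peak lists set the frame for every count that follows. They held 61953 and 63401 peaks in Smc3 del/+, the shortest pair, 64218 to 74525 in Smc3 fl/+ and Flt3-ITD, and 80316 and 80698 in Smc3 fl/del Flt3-ITD, the longest pair. No list carries read numbers, so sequencing depth is unknown and a missing peak does not show closed chromatin. The libraries of Smc3 fl/del Flt3-ITD also stand apart on the Y chromosome, with 282 and 294 peaks there against 84 to 98 in the other 6, although the windows lie on autosomes. Scores, the authors' own value for each peak, run from 0.99 to 1 and are used only to rank peaks within a list, in which 27.2% to 34.9% of peaks score exactly 1. Coordinates are mm9, counted from 1. Without an annotation of that build a region is tied to a gene only through its window, and exons, introns and start sites are not assigned. In RefSeq's gene order Mpo lies between Tspoap1 and Lpo, Prtn3 between Plppr3 and Elane, Elane between Prtn3 and Cfd, and Csf1r between Pdgfrb and Hmgxb3, so a region of a window may belong to a neighbour.

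The 3 windows were open in every genotype. Of the 38 regions 13 were called in all 8 libraries, 34.2%, beside 31.5% of all regions. Another 9 (23.7%) were called in a single library, against 24.0% of all regions. In between, 5 regions (13.2%) were called in 7 libraries and 3 (7.89%) in 6, beside 6.72% and 5.79% of all regions. None was called in 4 or 5, as 6.68% and 5.35% of all regions were. Of the regions called in all libraries, 6 lay in the Prtn3 and Elane window, 5 in the Mpo window and 2 in the Csf1r window. Leaving out both Smc3 fl/del Flt3-ITD libraries, a removal chosen after the values were seen, also gave 13. With only the upper 50% of each list by score, 4 of 21 regions were called in every library.

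**Figure D1:**
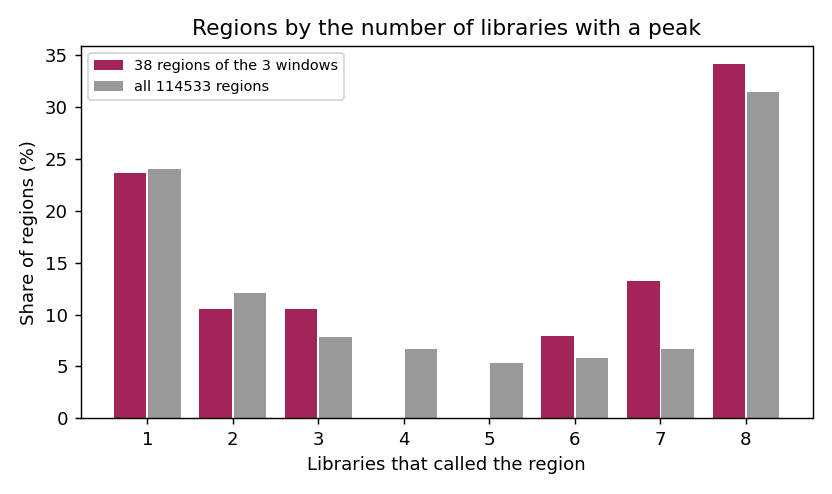
Share of regions (y axis, %) by the number of libraries that called them (x axis), for the 38 regions of the windows and for all 114533 regions. The shares at 1 library (23.7% and 24.0%) and at 8 libraries (34.2% and 31.5%) stand side by side, and no window region was called in 4 or 5 libraries.

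Each window region that 1 or 2 libraries missed lacked a peak in at least 1 Smc3 del/+ library. This pattern was noticed after the values were seen. Each of the 5 regions called in 7 libraries lacked a Smc3 del/+ library, replicate 1 in 4 cases and replicate 2 in 1, whereas in all 7701 such regions of the genome the missing library was Smc3 del/+ in 47.0%. Together with those called in 6, 8 of 8 window regions lacked at least 1 Smc3 del/+ library, beside 53.8% of 14334 regions genome-wide. When the lists were cut to the same length the count was 6 of 9, beside 44.2% of all such regions. These 8 regions were spread over the windows: 4 in the Mpo window (87591600-87592673, 87592781-87593636, 87609368-87611033 and 87624484-87625734), 1 in the Prtn3 and Elane window (79346264-79347155) and 3 in the Csf1r window (61264678-61266258, 61280113-61280890 and 61290253-61292450). Of those called in 6 libraries, 87591600-87592673 was not called in Smc3 del/+ replicate 1 and Flt3-ITD replicate 2. Its neighbour 87592781-87593636 lacked the same Smc3 del/+ library. Region 87609368-87611033 was not called in Smc3 del/+ replicate 2 and Smc3 fl/del Flt3-ITD replicate 2, and only 61280113-61280890 lacked both Smc3 del/+ libraries. At 79346264-79347155 the Smc3 del/+ library without a call, replicate 1, had a peak 66 bp away, whereas at 87592781-87593636 its nearest lay 7582 bp away. The shorter lists of Smc3 del/+ move with this count, and their part in it was not tested.

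**Figure D2:**
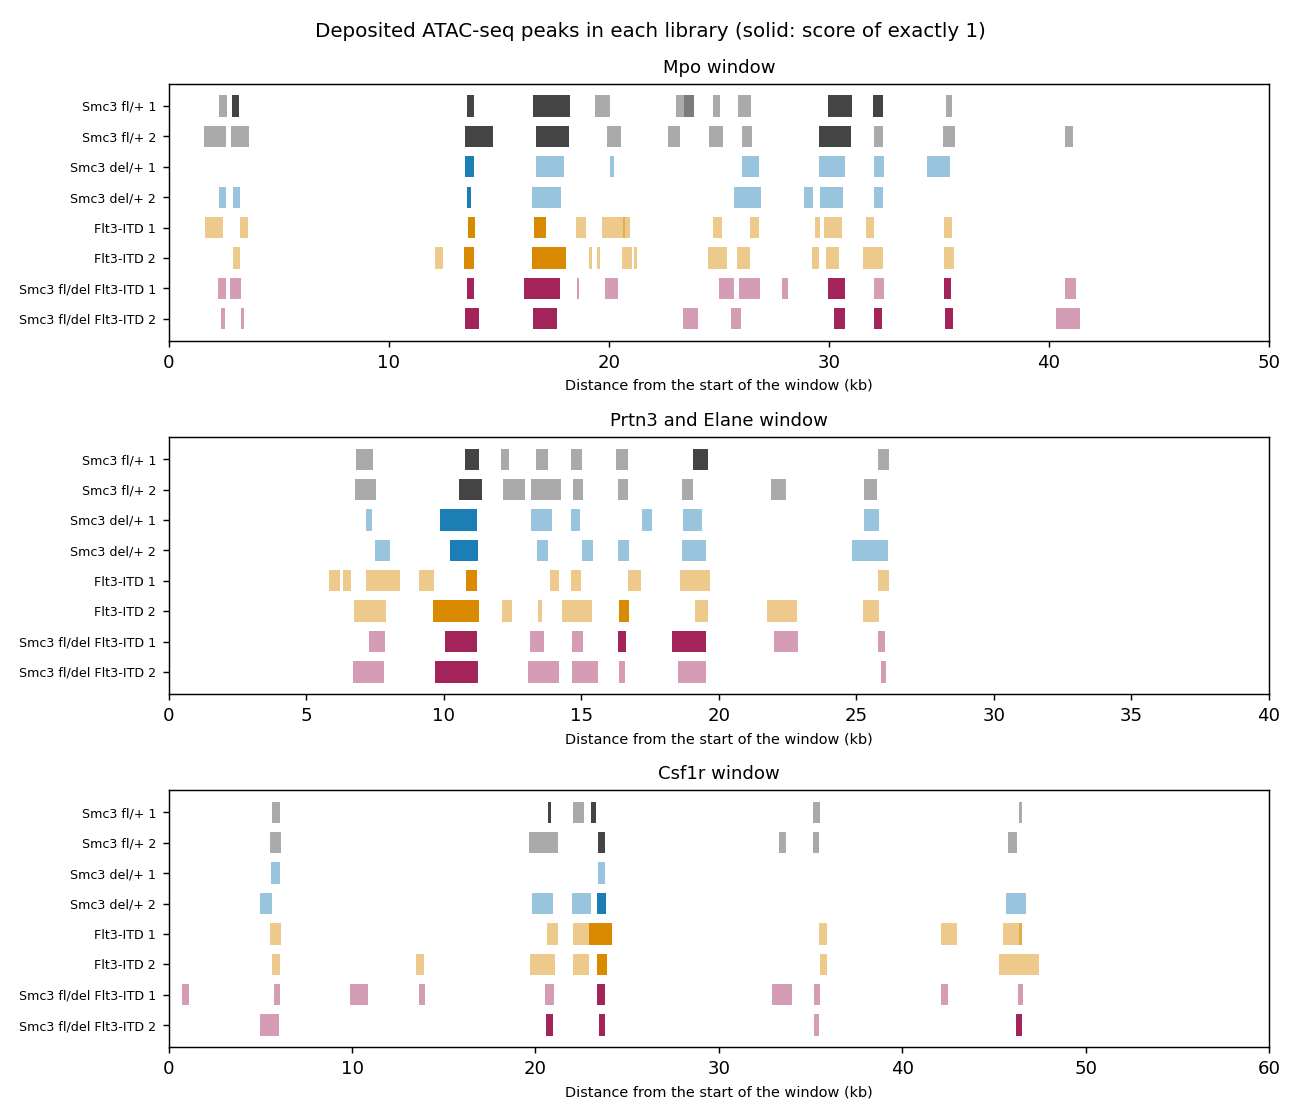
Deposited peaks of each library (rows, 2 per genotype) along the Mpo, the Prtn3 and Elane and the Csf1r window; the x axis is the distance in kb from the start of the window, and solid bars are peaks that score exactly 1. Regions called in every library have a bar in all 8 rows, but the bars of a region need not all overlap. Smc3 del/+ replicate 1 shows 2 peaks in the Csf1r window.

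In the Mpo window, the region with the highest scores sat 13.4 kb and the widest 16.1 kb from the start. Region 87603416-87604751 scored exactly 1 in all 8 libraries, which 2 of the 38 regions and 11.2% of all regions did, and all 8 peaks overlapped in a stretch of 133 bp (87603602-87603734). It covered 353 and 1301 bp in Smc3 fl/+, 429 and 183 bp in Smc3 del/+, 309 and 470 bp in Flt3-ITD, and 341 and 660 bp in Smc3 fl/del Flt3-ITD (replicates 1 and 2). Replicates of a genotype thus differed by up to 3.69 times, and the genotypes overlapped.

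Region 87606145-87608258 was the widest of the Mpo window on average, with 1331 bp per library. Its width was 1720 and 1502 bp in Smc3 fl/+, 1267 and 1317 bp in Smc3 del/+, 561 and 1549 bp in Flt3-ITD, and 1621 and 1108 bp in Smc3 fl/del Flt3-ITD. Both Smc3 del/+ libraries lay below both control libraries, but the low value of Flt3-ITD replicate 1 lay below them all. Its best peak scored exactly 1 in the 6 libraries of the other genotypes, whereas in Smc3 del/+ it stood at the 58.0 and 57.1 percentile of the list. All 8 libraries shared 463 bp (87606686-87607148).

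Farther along, region 87618867-87621073 covered 1122 and 1453 bp in Smc3 fl/+, 1192 and 1475 bp in Smc3 del/+, 1064 and 928 bp in Flt3-ITD, and 780 and 488 bp in Smc3 fl/del Flt3-ITD. The libraries of the last genotype were the lowest 2 of the 8 and those of Flt3-ITD came next. Width and score did not run together here: the best peak scored exactly 1 in both Smc3 fl/+ and both Smc3 fl/del Flt3-ITD libraries, and lay between the 37.6 and 56.7 percentile in the other 4.

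Of the 13 window regions called in every library, only 87603416-87604751, 87606145-87608258, 87618867-87621073 and 79339100-79341380 had a stretch that all libraries shared. Region 87614488-87616930 was built of 13 peaks and had none. It covered 922 and 1041 bp in Smc3 fl/+, 755 and 1252 bp in Smc3 del/+, 818 and 1425 bp in Flt3-ITD, and 1593 and 459 bp in Smc3 fl/del Flt3-ITD. Those last 2 replicates, at 3.47 times, held both the highest and the lowest value. The fifth region called in every library, 87621555-87622528, ranged from 369 to 927 bp. Of the remaining regions of this window, those at 87602125-87602485, 87609115-87609246, 87611147-87611264 and 87617895-87618145 were called in 1 library each, and 87608509-87608973 in Flt3-ITD replicate 1 and Smc3 fl/del Flt3-ITD replicate 1. The last 2, 87612692-87614072 and 87630321-87631397, were called in 3 libraries each and are described with the comparisons.

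In the Prtn3 and Elane window, region 79339100-79341380 was the other of the 2 that scored exactly 1 in every library. Its width was 480 and 819 bp in Smc3 fl/+, 1349 and 1013 bp in Smc3 del/+, 945 and 1683 bp in Flt3-ITD, and 1180 and 1579 bp in Smc3 fl/del Flt3-ITD. Both control libraries were the lowest of the 8. A stretch of 382 bp (79340821-79341202) was covered in all of them.

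Region 79348285-79349668 covered 523 and 411 bp in Smc3 fl/+, 702 and 905 bp in Smc3 del/+, 1072 and 479 bp in Flt3-ITD, and 1241 and 1012 bp in Smc3 fl/del Flt3-ITD. Smc3 del/+ and Smc3 fl/del Flt3-ITD lay above both controls, and Flt3-ITD overlapped them. Despite their widths, the Smc3 del/+ peaks ranked lowest within their lists, at the 28.7 and 29.7 percentile, against 49.2 or more elsewhere.

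Region 79336721-79338402 was wide in Flt3-ITD, with 1234 and 1160 bp. It measured 608 and 780 bp in Smc3 fl/+, 217 and 564 bp in Smc3 del/+, and 581 and 1104 bp in Smc3 fl/del Flt3-ITD. Both Smc3 del/+ values lay below all others, and both Flt3-ITD values above them. The other regions called in every library were 79343062-79344251 (169 to 1145 bp), 79344291-79345623 (317 to 1099 bp) and 79354855-79356177 (186 to 1282 bp). In this window 79335830-79336238, 79336341-79336620 and 79347222-79347573 were called once, and 79342068-79342938 and 79351752-79352874 in 3 libraries each.

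The Csf1r window was sparser, with 16.7 regions per 100 kb against 32.0 in the Mpo and 30.0 in the Prtn3 and Elane window. Region 61266994-61269150, 22.0 kb into the window, gathered 12 peaks and scored exactly 1 in every library but Smc3 del/+ replicate 1. Its width was 893 and 354 bp in Smc3 fl/+, 406 and 1538 bp in Smc3 del/+, 2077 and 1443 bp in Flt3-ITD, and 420 and 317 bp in Smc3 fl/del Flt3-ITD. Both Flt3-ITD libraries lay above both controls and above both libraries of the combined genotype, while the Smc3 del/+ replicates reached into the range of every other genotype.

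Its neighbour 61264678-61266258 was called in every library but Smc3 del/+ replicate 1, and in the Smc3 fl/+ libraries it covered 136 and 1535 bp, a ratio of 11.3 between replicates. Region 61290253-61292450 was missing in the same library, which had no peak within 21460 bp of it. The second region called in all libraries, 61249975-61251148, covered 456 and 621 bp in Smc3 fl/+, 543 and 644 bp in Smc3 del/+, 556 and 401 bp in Flt3-ITD, and 303 and 1063 bp in Smc3 fl/del Flt3-ITD. Its genotypes overlapped throughout. The scores behind it were low in 6 libraries, from the 1.84 to the 25.5 percentile, and reached the 53.6 and 59.1 percentile in Smc3 fl/del Flt3-ITD. Regions 61245724-61246135 and 61254917-61255874 were called in Smc3 fl/del Flt3-ITD replicate 1 alone. Regions 61258474-61258962, 61277888-61279015 and 61287106-61287973 were called there and in 1 library of another genotype, Flt3-ITD for the first and the last of them and Smc3 fl/+ for the second.

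**Figure D3:**
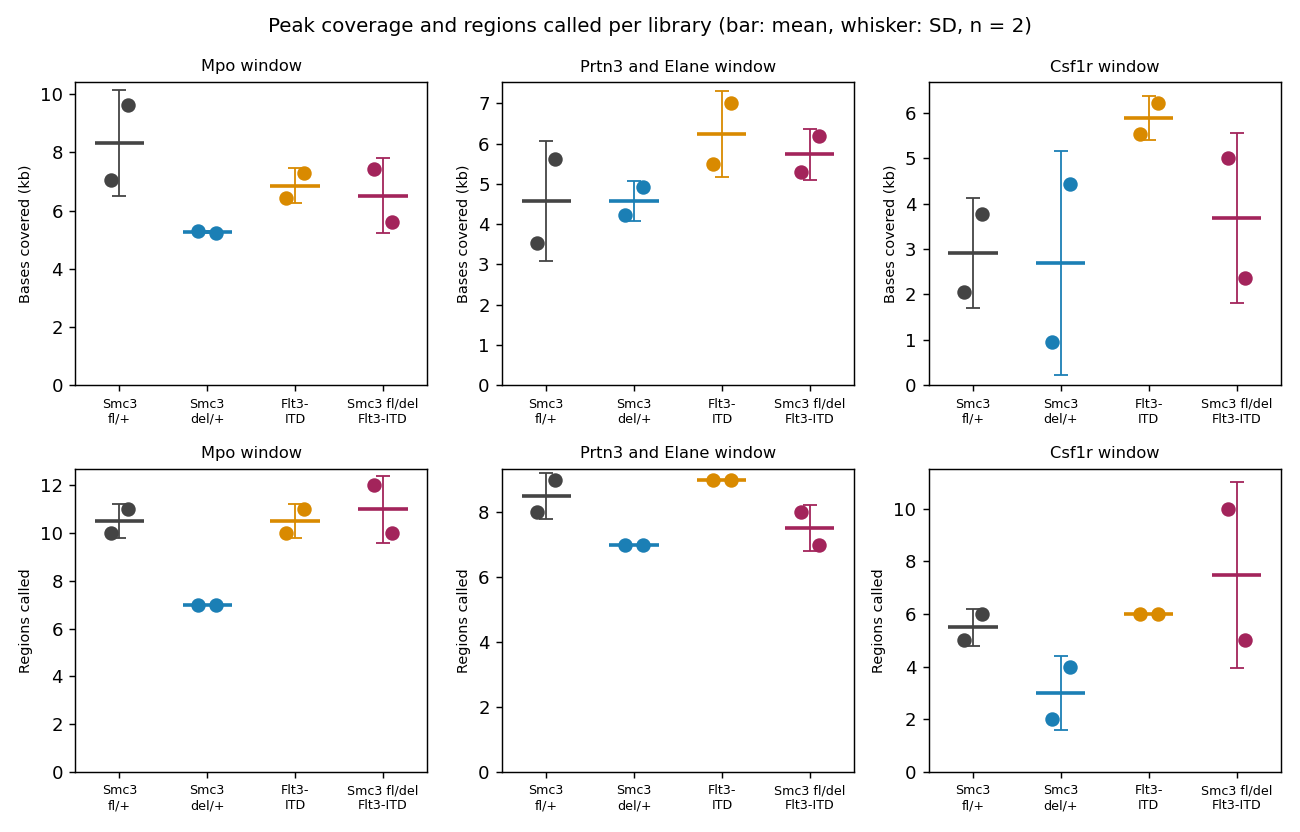
Bases covered by peaks (upper row, kb) and number of regions called (lower row) in each window for each library (points), by genotype on the x axis; horizontal bars are means and whiskers SD, n = 2. Both Smc3 del/+ libraries called 7 regions of the Mpo window, against 10 to 12 in the other 6, and the Flt3-ITD libraries covered the most of the Csf1r window.

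Smc3 del/+ against Smc3 fl/+ is the comparison for the loss of 1 Smc3 allele, although Mx1-Cre differs along with it. Smc3 del/+ libraries had fewer peaks in the 3 windows than any other library, 16 and 20, against 26 and 27 in Smc3 fl/+, 31 and 31 in Flt3-ITD, and 31 and 22 in Smc3 fl/del Flt3-ITD. Per 10000 peaks of the list the values were 2.58 and 3.15 in Smc3 del/+ and 3.49 and 4.17 in Smc3 fl/+, while Smc3 fl/del Flt3-ITD replicate 2 stood at 2.74. With an equal number of peaks in each list they were 16 and 20, with that same replicate at 19 and the other 5 libraries at 22 to 30. In the Mpo window both Smc3 del/+ libraries called 7 regions and the other 6 called 10 to 12. Peaks there covered 5.27 ± 0.0460 kb in Smc3 del/+ and 8.33 ± 1.83 kb in Smc3 fl/+ (SD, n = 2), a difference of -3.07 kb, and the genotypes did not overlap. Such a separation was common: over 17575 stretches of 50 kb across the genome that held a peak of every library, coverage of these genotypes did not overlap in 37.3%, and among the windows this was 1 of 3. The Mpo difference was -1.77 kb without Smc3 fl/+ replicate 2, and -1.48 kb when the Flt3-ITD and Smc3 del/+ labels were exchanged.

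For the other windows coverage did not separate these genotypes. Prtn3 and Elane had 4.58 ± 0.495 kb in Smc3 del/+ and 4.57 ± 1.49 kb in Smc3 fl/+ (SD, n = 2). Csf1r had 2.69 ± 2.47 kb, from 0.949 and 4.44 kb, against 2.91 ± 1.20 kb (SD, n = 2). Both libraries of at least 1 of these genotypes called 23 regions. Of these, 3 were called in both Smc3 fl/+ and neither Smc3 del/+ library, and none the reverse. Genome-wide, 11.1% of the regions so called differed in either direction, with 4861 lost and 1827 gained in Smc3 del/+.

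These 3 regions lay 1 in each window. Region 87612692-87614072 of the Mpo window covered 789 and 568 bp in Smc3 fl/+ and 709 bp in Smc3 fl/del Flt3-ITD replicate 2, and was called nowhere else. Region 79342068-79342938 of the Prtn3 and Elane window covered 305 and 767 bp in Smc3 fl/+ and 377 bp in Flt3-ITD replicate 2, but the Smc3 del/+ libraries had peaks 245 and 471 bp away from it. Region 61280113-61280890 of the Csf1r window lay farthest from any other Smc3 del/+ peak: it covered 394 and 378 bp in Smc3 fl/+, 392 and 347 bp in Flt3-ITD, and 341 and 276 bp in Smc3 fl/del Flt3-ITD, and the nearest Smc3 del/+ peak was 9787 bp away. Its peak in Smc3 fl/+ replicate 2 stood at the 0.412 percentile of that list, near the lowest score. With only the upper 50% of peaks by score 5 regions differed, while leaving out a library, which loosens the rule, gave 9 without Smc3 del/+ replicate 2, 5 without its replicate 1 and 6 without Smc3 fl/+ replicate 1.

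Flt3-ITD against Smc3 fl/+ is the comparison for the duplication in mice whose genotype label names no Smc3 allele, and Mx1-Cre differs here as well. Flt3-ITD peaks covered 5.88 ± 0.486 kb of the Csf1r window, from 5.53 and 6.22 kb, against 2.91 ± 1.20 kb, from 2.06 and 3.76 kb, in Smc3 fl/+ (SD, n = 2). The difference was 2.97 kb and the genotypes did not overlap, in 1 of 3 windows beside 37.9% of the 50 kb stretches. It came to 0.359 kb with the upper 50% of peaks by score and to -0.220 kb with the labels exchanged. Coverage of the other windows overlapped, at 6.85 ± 0.609 and 8.33 ± 1.83 kb for Mpo and 6.24 ± 1.07 and 4.57 ± 1.49 kb for Prtn3 and Elane (SD, n = 2). Of 23 regions, 1 was called in both Smc3 fl/+ and neither Flt3-ITD library, the Mpo region 87612692-87614072 named above, beside 12.3% of regions genome-wide that differed in either direction. The Flt3-ITD libraries had peaks 652 and 415 bp from it. Leaving out either Flt3-ITD library gave 6 regions, and leaving out Smc3 fl/+ replicate 1 gave 3.

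Smc3 fl/del Flt3-ITD against Smc3 fl/+ joins both alterations, and Mx1-Cre differs along with them. Coverage overlapped in all 3 windows, while it did not in 42.8% of the 50 kb stretches: 6.51 ± 1.29 kb for Mpo, 5.73 ± 0.636 kb for Prtn3 and Elane and 3.68 ± 1.88 kb for Csf1r in the combined genotype (SD, n = 2). Of 24 regions, 1 was called in both Smc3 fl/+ libraries and in neither of the combined genotype, whereas 20.2% of regions differed genome-wide in either direction. It was 79342068-79342938, from which these libraries had peaks 206 and 123 bp away. Without Smc3 fl/del Flt3-ITD replicate 2 the count was 8, and without its replicate 1 or Smc3 fl/+ replicate 2 it was 2.

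Smc3 fl/del Flt3-ITD against Flt3-ITD adds Smc3 deletion to the duplication. Csf1r coverage differed by -2.19 kb, lower in the combined genotype and without overlap, in 1 of 3 windows beside 40.1% of the 50 kb stretches. It was -0.869 kb without Smc3 fl/del Flt3-ITD replicate 2 and -3.52 kb without its replicate 1. The difference changed sign with the upper 50% of peaks by score, to 0.472 kb, and with the labels exchanged, to 0.99 kb. For Mpo (6.51 and 6.85 kb) and for Prtn3 and Elane (5.73 and 6.24 kb) the means differed by less than the spread within genotypes. Of 22 regions 1 was gained, beside 16.0% genome-wide in either direction. This was 87630321-87631397 of the Mpo window, which covered 471 and 1077 bp in Smc3 fl/del Flt3-ITD and 374 bp in Smc3 fl/+ replicate 2, while the nearest Flt3-ITD peak was 4625 bp away. With lists of the same length 0 regions differed. Without Flt3-ITD replicate 1 there were 6, without Smc3 fl/del Flt3-ITD replicate 2 there were 5, and without the other replicate of either genotype 3.

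Smc3 fl/del Flt3-ITD against Smc3 del/+ adds the duplication to Smc3 deletion. The same region 87630321-87631397 and the Csf1r region 61280113-61280890 were called in both libraries of the combined genotype and in neither Smc3 del/+ library, 2 of 21 regions, beside 25.7% genome-wide in either direction. Coverage of the Mpo window was 1.24 kb higher in the combined genotype, and that of Prtn3 and Elane 1.15 kb higher, both without overlap, which makes 2 of 3 windows beside 45.0% of the 50 kb stretches. Without Smc3 fl/del Flt3-ITD replicate 1 the Mpo difference was 0.329 kb and without its replicate 2 it was 2.16 kb, while the other difference was 0.701 kb without replicate 2. With lists of the same length the Mpo difference was -0.0815 kb and the other 0.251 kb, and with the labels exchanged they were -0.344 and -0.512 kb. Csf1r coverage overlapped, at 3.68 ± 1.88 and 2.69 ± 2.47 kb (SD, n = 2). Leaving out Smc3 fl/del Flt3-ITD replicate 2 gave 10 regions that differed, and leaving out Smc3 del/+ replicate 2 gave 8.

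**Figure D4:**
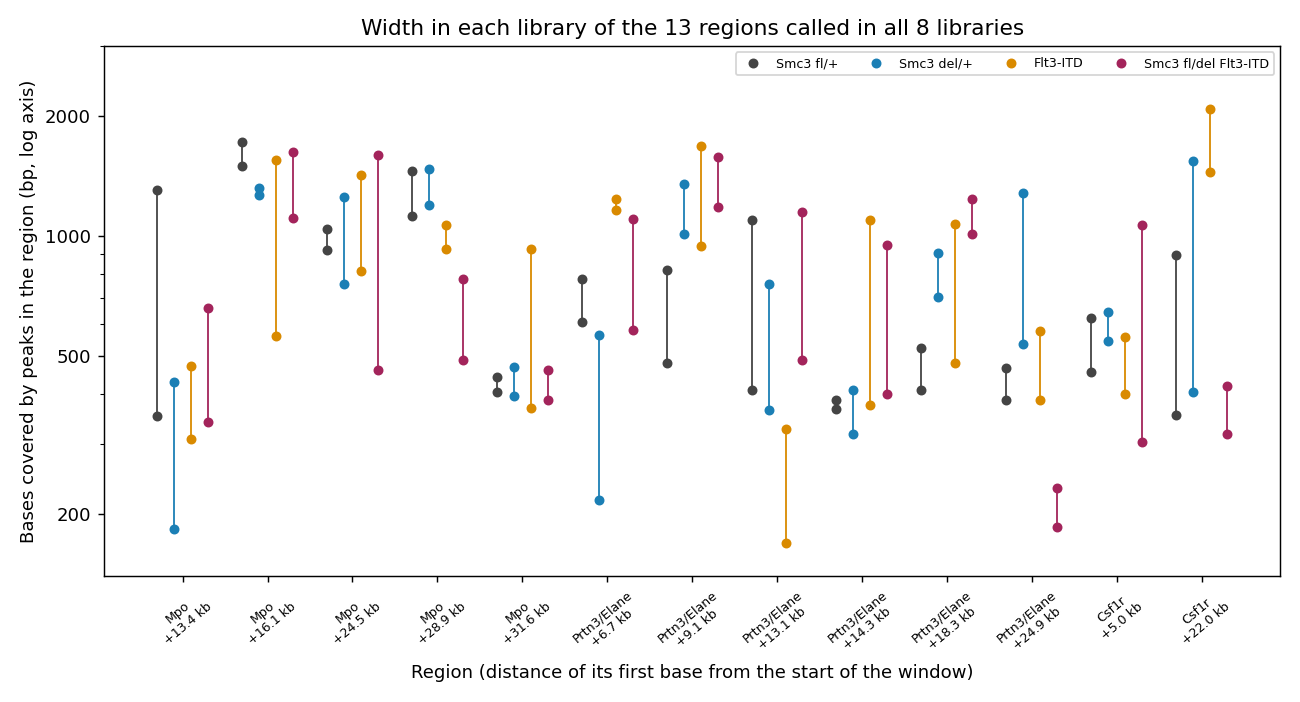
Bases covered by peaks in each library (points, y axis in bp on a log scale) for the 13 regions called in all 8 libraries, named by window and distance from its start; lines join the 2 libraries of a genotype. Many lines within a genotype are as long as the distance between genotypes, such as 353 and 1301 bp for Smc3 fl/+ at the Mpo region 13.4 kb into its window.

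Width was tested with limma on the log2 scale over all 36101 regions called in every library, with widths centred per library. None of the 13 window regions passed an adjusted p of 0.05 in any of the 5 comparisons or for the interaction, and neither did any region of the genome (0%). At an unadjusted p under 0.05 there were 0 of 13 for Smc3 del/+ against Smc3 fl/+ (6.51% of all regions), 0 for Flt3-ITD against Smc3 fl/+ (5.51%), and 2 for Smc3 fl/del Flt3-ITD against Smc3 fl/+ (4.07%). There were 3 for Smc3 fl/del Flt3-ITD against Flt3-ITD (5.29%), 1 against Smc3 del/+ (6.88%) and 1 for the interaction (6.32%). The median log2 difference of the 13 regions was -0.08 for Smc3 del/+ and 0.09 for Flt3-ITD against Smc3 fl/+, and 0.01 for the combined genotype, beside medians of -0.01, 0.01 and 0.00 over all regions. Against Flt3-ITD and Smc3 del/+ the combined genotype had medians of 0.02 and 0.18 over the 13 regions, beside -0.01 and 0.00 over all. For the interaction they were 0.05 and -0.05. The medians of the 13 regions turned with single libraries. For Smc3 del/+ against Smc3 fl/+ the median was 0.11 without Smc3 del/+ replicate 1 and -0.21 without its replicate 2. For Flt3-ITD it was 0.38 without Flt3-ITD replicate 1 and -0.20 without replicate 2. Leaving out a library also moved it from -0.23 to 0.33 for Smc3 fl/del Flt3-ITD against Smc3 fl/+, from -0.45 to 0.33 against Flt3-ITD and from -0.45 to 0.26 for the interaction, while it ran from 0.18 to 0.47 against Smc3 del/+.

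For each window the region and comparison with the smallest p are given, chosen after their values were seen. Region 79354855-79356177 of the Prtn3 and Elane window covered 232 and 186 bp in Smc3 fl/del Flt3-ITD, 536 and 1282 bp in Smc3 del/+, 386 and 465 bp in Smc3 fl/+, and 386 and 577 bp in Flt3-ITD. Both libraries of the combined genotype were the lowest of the 8. No base of this region was covered in more than 6 libraries, and those 6 shared 7 bp. Its widths may therefore compare peaks at different positions. The log2 difference against Smc3 del/+ was -1.87 ± 0.45 (SE, limma, adjusted p = 0.513), and the adjusted p ran from 0.193 to 0.943 over the alternatives that could be fitted. The Csf1r region 61266994-61269150 was narrower in Smc3 fl/del Flt3-ITD than in Flt3-ITD by -2.17 ± 0.792 (SE, limma, adjusted p = 0.91, 0.637 to 1 over the alternatives). For the Mpo region 87618867-87621073 the difference of Smc3 fl/del Flt3-ITD from Smc3 fl/+ was -1.03 ± 0.415 (SE, limma, adjusted p = 1, 0.815 to 1 over the alternatives). The same test for Flt3-ITD against Smc3 fl/+ was run on simulated data with each region's own spread as estimated from these libraries. It called 0 of 50 planted log2 changes of 2, 11 of 50 of 3, 28 of 50 of 4 and 32 of 50 of 5. Another 2 calls fell on regions without a planted change.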

How the data were processed

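Each of the 8 libraries has 1 deposited peak list with 6 columns and no header, so peaks were called per library. The start and end of a peak (in bp) and a score are the authors' deposited values. The meaning of the score is not stated. The submitters' processing notes name Bowtie and mm9. Peak caller, settings, transposase offset and duplicate handling: not given in the sources used here.

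Peaks were merged into regions at an overlap of 1 bp. A region was called in a library that had a peak in it, and its width was the bases those peaks covered, overlaps counted once. Peaks of different libraries in a region need not all overlap, so widths may compare peaks at different positions. Coverage of a window counts bases inside it. A region differed between genotypes when called in both libraries of one and neither of the other. With 2 against 2 libraries a two-sided permutation test cannot go below p = 0.333, so calls and coverage have no p. The share over all regions stands beside calls. Beside coverage stands the share of 50 kb stretches of the genome, of those with a peak of every library, in which the libraries of both genotypes do not overlap. Log2 widths were fitted with limma 3.58.1 (R 4.3.3, genotype means, trend) with Benjamini-Hochberg adjustment over all 36101 regions called in every library, and the interaction is Smc3 fl/del Flt3-ITD minus Flt3-ITD minus Smc3 del/+ plus Smc3 fl/+. The p-values reflect only how these libraries vary, which may be technical. Planted changes in simulated data were recovered in size. Every region of the windows is named. Per-library widths are given for up to 3 of the widest regions called in all libraries per window, for those that differ in calls, and for a few others chosen after their values were seen. Percentiles rank a region's best peak within its list, ties at their middle. Promoter sequences are from RefSeq (GRCm38.p6), where 3 of 4 genes are shown. The members and lists were chosen with earlier results of these data known. Python 3.11.15, pandas 2.3.3, numpy 2.4.6 and matplotlib 3.10.9 were used.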

Additional observations from a re-analysis of the deposited data

How the results depend on the processing

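Alternatives were the upper 50% of each list by score, an equal number of peaks per library, merging at 100 bp, coverage per Mb of the list, exchanging Flt3-ITD with Smc3 del/+ (as the free-text notes have them), for width no centring, no trend and a block, and leaving out each library. Regions called in every library numbered 4 with the upper 50%, 10 with equal numbers, 13 at 100 bp and 13 to 17 without 1 library. Regions called in 6 or 7 libraries that lack a Smc3 del/+ library, an alternative added after seeing the data, numbered 3 of 3 with the upper 50%, 6 of 9 with equal numbers and 7 of 7 at 100 bp, beside 54.7%, 44.2% and 51.5% of all such regions. Regions that differed in calls came to 5 (upper 50%), 1 (exchange) and 3 to 9 (leaving out a library) for Smc3 del/+ against Smc3 fl/+. For Flt3-ITD against Smc3 fl/+ they came to 3, 3 and 1 to 6, and to 4 at 100 bp. For Smc3 fl/del Flt3-ITD against Smc3 fl/+ they came to 4 (upper 50%), 2 (equal numbers) and 1 to 8 (leaving out). Against Flt3-ITD the values were 3, 0 and 3 to 6, with 4 at 100 bp and 2 on exchange, and against Smc3 del/+ 8, 1 and 3 to 10, with 1 on exchange. The cause of each shift was not tested.

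Of 80 alternative values for the 10 coverage differences whose genotypes overlapped, 20 changed sign, 11 of them on leaving out a library. Of 40 for the 5 without overlap 6 changed sign, and 0 of the 20 that left out a library did. These 6 were -0.0815 kb with equal numbers and -0.344 kb on exchange (Mpo, Smc3 fl/del Flt3-ITD against Smc3 del/+), -0.512 kb on exchange (Prtn3 and Elane, same pair), -0.220 kb on exchange (Csf1r, Flt3-ITD against Smc3 fl/+), and 0.472 kb with the upper 50% and 0.99 kb on exchange (Csf1r, Smc3 fl/del Flt3-ITD against Flt3-ITD).

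By limma, leaving out a library gave 0 to 1 regions of the genome past the threshold for Smc3 del/+ and for Flt3-ITD against Smc3 fl/+ and for the interaction (1 without Smc3 fl/+ replicate 1, assuming the lone library varies like the others). Window regions past it numbered 0 in every alternative. Without centring the median of all regions shifted to 0.10 for Smc3 del/+ against Smc3 fl/+, -0.12 for Smc3 fl/del Flt3-ITD against Smc3 del/+ and -0.24 for the interaction. With the replicate number as a block 0 regions passed in each comparison. Width deviations of same-numbered libraries correlated at -0.0133 to 0.00861. Widths were centred per library first, which removes a shift of a whole library. Whether same-numbered libraries were prepared together therefore cannot be told from these values.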
